A study of Mus musculus with 6 samples.

Results

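The chaperones and co-chaperones described here are the genes whose platform symbol starts with Hspa, Hspb, Hspd, Hspe, Hsph, Hsp90, Dnaj, or with Cct or Bag followed by a digit. On mouse bead arrays of 6 brain tumours, 83 genes met this rule, with 155 probes, of 19057 genes with a single symbol in all. Of the 83, 69 had a probe above background (detection p under 0.05) on at least 2 arrays and were tested among 12242 genes. The rule also takes in Hspbp1 and Hspbap1, which bind Hsp70 and Hspb1 proteins and are not chaperones of the Hspb family, and it leaves out Tcp1, the first subunit of the CCT ring. Hsp90ab1, the constitutive cytosolic Hsp90, was not analysed here.

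The gliomas were raised with RCAS viruses, which come from birds and infect only mouse cells that carry the receptor tva; in Ntva mice the promoter of nestin, a gene of neural progenitors, drives it. HoxA5 tumours (n = 2) came from virus-producing chicken fibroblasts for PDGFB and HoxA5, and mCherry tumours (n = 4), the controls, from fibroblasts for PDGFB and the fluorescent protein mCherry. All mice were adult, untreated Ntva animals of mixed FVB/N, C57BL6, BALB/C and 129 background, with 1 or no intact copy of Ink4a/Arf (Ink4a/Arf+/- or Ink4a/Arf-/-). The genotype behind each tumour is not stated. RNA was taken from whole tumour tissue, so fewer cells of a type and less RNA per cell cannot be told apart. Nothing says that each tumour came from its own mouse, so the p-values reflect how far these arrays differ from each other, which may be technical.

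Median intensities lay between 136.1 and 166.8, and 19950 to 21904 probes were above background per array, the most on mCherry 2. Between arrays, mCherry 4 correlated at 0.963 and 0.962 with HoxA5 1 and 2, against 0.950, 0.957 and 0.921 with mCherry 1, 2 and 3. The glioma lineage genes Olig1, Olig2, Sox2, Sox10 and Pdgfra were detected on 6 of 6 arrays. The Hoxa5 probe was detected on 0 of 6 arrays and does not check the labels, since it is not known whether it covers the HoxA5 sequence in the virus. Of markers of other cells, 8 of 9 neuron and 6 of 8 myelin markers tested were called lower in HoxA5 tumours (adjusted p under 0.05 in limma, as everywhere below), against 4.64% of all genes. Called higher were 4 of 7 dividing-cell and 4 of 6 fibroblast markers, against 1.21% of all genes. The fibroblast list also holds Pdgfra, named above as a glioma lineage gene.

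Chaperones bind unfolded or partly folded proteins and keep them from aggregating. Hsp70 proteins (Hspa genes) do so in cycles of ATP hydrolysis, which J-domain proteins (Dnaj genes) start and exchange factors of the Bag, Hsph and Hspa4 kind end. Hsp90 finishes the folding of kinases and receptors, small heat shock proteins (Hspb genes) hold damaged proteins, and the CCT ring folds actin and tubulin. Some of these genes are on in every cell. Others are switched on by heat shock factors through the heat shock element when proteins unfold in the cytosol, or by the unfolded protein response when they unfold in the endoplasmic reticulum (ER).

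Promoter sequences that hold the element of either stress response are shown as examples, because several members of the first response stood apart in a single mCherry tumour. They are the bases just before the transcript start, 5′ to 3′ along the gene, taken from RefSeq with the GRCm38.p6 build, which held promoters for 69 of the 83 genes. Capitals mark the heat shock element, searched as GAANNTTC or TTCNNGAA, in the first 5 sequences, and the ER stress element, searched as CCAAT, 9 bases of any kind and CCACG on either strand, in the last 2.
Hspa1a, chr17:34972157-34972406, minus strand: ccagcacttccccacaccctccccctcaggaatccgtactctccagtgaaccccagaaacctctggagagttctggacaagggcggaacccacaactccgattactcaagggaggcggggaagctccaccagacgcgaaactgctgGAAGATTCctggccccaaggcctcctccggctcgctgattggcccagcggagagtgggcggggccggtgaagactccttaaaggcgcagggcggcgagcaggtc
Hspa1b, chr17:34959239-34959488, minus strand: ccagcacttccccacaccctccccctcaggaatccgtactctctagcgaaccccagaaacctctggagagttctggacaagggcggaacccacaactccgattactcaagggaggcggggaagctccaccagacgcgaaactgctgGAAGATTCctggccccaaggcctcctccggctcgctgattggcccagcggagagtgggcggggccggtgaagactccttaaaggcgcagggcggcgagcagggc
Hsph1, chr5:149636337-149636586, minus strand: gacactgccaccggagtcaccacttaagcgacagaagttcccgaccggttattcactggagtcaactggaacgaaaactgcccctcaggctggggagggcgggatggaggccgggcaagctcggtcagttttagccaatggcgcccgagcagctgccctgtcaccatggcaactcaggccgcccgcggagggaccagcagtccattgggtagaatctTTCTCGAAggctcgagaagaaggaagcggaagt
Hspb1, chr5:135887669-135887918, plus strand: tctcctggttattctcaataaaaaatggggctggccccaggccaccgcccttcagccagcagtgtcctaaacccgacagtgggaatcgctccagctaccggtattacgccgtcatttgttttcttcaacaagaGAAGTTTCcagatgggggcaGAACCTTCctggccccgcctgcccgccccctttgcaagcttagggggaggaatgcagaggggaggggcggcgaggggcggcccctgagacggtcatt
Hspd1 and Hspe1, the stretch between their divergent starts, chr1:55087933-55088147, minus strand: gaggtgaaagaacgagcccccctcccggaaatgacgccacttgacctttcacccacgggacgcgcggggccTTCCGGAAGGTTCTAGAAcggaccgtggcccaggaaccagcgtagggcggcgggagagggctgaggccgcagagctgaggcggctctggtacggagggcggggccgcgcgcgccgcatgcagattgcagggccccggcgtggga
Hspa5, chr2:34771840-34772089, plus strand: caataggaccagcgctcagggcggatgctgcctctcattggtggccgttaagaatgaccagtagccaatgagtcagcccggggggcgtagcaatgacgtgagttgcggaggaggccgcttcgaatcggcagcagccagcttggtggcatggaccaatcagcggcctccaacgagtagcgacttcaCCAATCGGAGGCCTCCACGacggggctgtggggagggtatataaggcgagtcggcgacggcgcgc
Hsp90b1, chr10:86705445-86705694, minus strand: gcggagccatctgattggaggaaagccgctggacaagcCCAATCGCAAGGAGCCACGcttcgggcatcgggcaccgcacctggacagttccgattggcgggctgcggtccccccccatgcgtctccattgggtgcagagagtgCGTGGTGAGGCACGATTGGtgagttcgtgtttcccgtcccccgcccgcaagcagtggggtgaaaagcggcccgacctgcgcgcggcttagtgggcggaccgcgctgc
The Hspa1a and Hspa1b stretches share 247 of 250 bases without gaps (98.8%). In windows of 250 bases before to 50 after the start, on both strands, an element of this length occurred in 8 of 10 heat-shock-inducible members with a promoter (80.0%), against 17.0% of all 27025 genes. It was also found in 2 of 3 muscle and testis members, 3 of 6 CCT members and 2 of 5 mitochondrial members. Of the constitutive, ER and neuronal members, 1 of 11, 1 of 5 and 0 of 2 had it. These lists were chosen by role. Dnajb1, which stood apart in mCherry 2 as described below, has no such match in this window. Bag3, Dnaja1 and Hspb8, for which mCherry 2 was not the highest array, have 1 each. The part of the element in these levels was not tested, and the search misses inexact or more distant copies. A longer form of 3 blocks, in which NN and a further GAA or TTC follow, contains the shorter one. It was found in Hsph1, Hspd1, Hspe1 and Dnajb6 and in 0.662% of all genes. In the Hspd1 and Hspe1 stretch 2 copies of it overlap in 1 run of capitals. The ER stress element was found in Hspa5, Hsp90b1 and Dnajc3, and in 0.137% of all genes. These are matches of letters, not measured binding sites.

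None of the 11 heat-shock-inducible cytosolic chaperones was called between HoxA5 and mCherry tumours. Most of them were highest in 1 control tumour, mCherry 2. Hspa1a, the inducible Hsp70, had normalized log2 intensities of 7.02 and 8.21 in the HoxA5 tumours, against 6.23, 11.15, 6.51 and 5.92 in mCherry 1 to 4. The HoxA5 tumours lay between mCherry 2 and the other 3 mCherry tumours. Its HoxA5 mean was 7.62 ± 0.845 (SD, n = 2) and its mCherry mean 7.45 ± 2.48 (SD, n = 4), and they differed by 0.16 (SE 1.26, limma adjusted p = 0.952). The level in mCherry 2 was 30.4-fold that of the mean of mCherry 1, 3 and 4. Without mCherry 2 the difference between the groups was 1.40 (SE 0.458, adjusted p = 0.136), and the HoxA5 arrays then lay above all 3 remaining mCherry arrays. Neither fit passed the threshold of an adjusted p under 0.05.

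Hspa1b, the neighbouring near-identical Hsp70 gene, had values of 4.72 and 5.44 in the HoxA5 tumours, against 4.84, 8.83, 4.63 and 4.71 in mCherry 1 to 4. It was above background on 1 HoxA5 and 1 mCherry array, so no fold is given. The second Hspa1b probe that passed the filter did not set mCherry 2 apart from mCherry 1, with values of 4.60 and 4.68 in the HoxA5 tumours, against 6.02, 6.26, 5.002 and 4.98 in mCherry 1 to 4, and was above background on 2 arrays. The Hspa1a and Hspa1b transcripts are so alike that their signals may not be separate.

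Hsph1, an Hsp110 that resets Hsp70, had values of 11.57 and 11.43 in the HoxA5 tumours, against 11.52, 13.34, 11.96 and 11.68 in mCherry 1 to 4. Dnajb1, the J-domain partner of inducible Hsp70, had values of 11.25 and 11.70 in the HoxA5 tumours, against 11.72, 13.30, 11.83 and 11.49 in mCherry 1 to 4. For both genes mCherry 2 stood apart from 5 arrays that lay close together. It was 3.07-fold and 3.08-fold above the mean of mCherry 1, 3 and 4, and 1.37 and 1.47 (log2) above the next array. The group differences were -0.63 for Hsph1 and -0.61 for Dnajb1 (limma adjusted p = 0.414 and 0.434), and -0.22 and -0.20 without mCherry 2 (adjusted p = 0.626 and 0.672).

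**Figure D1:**
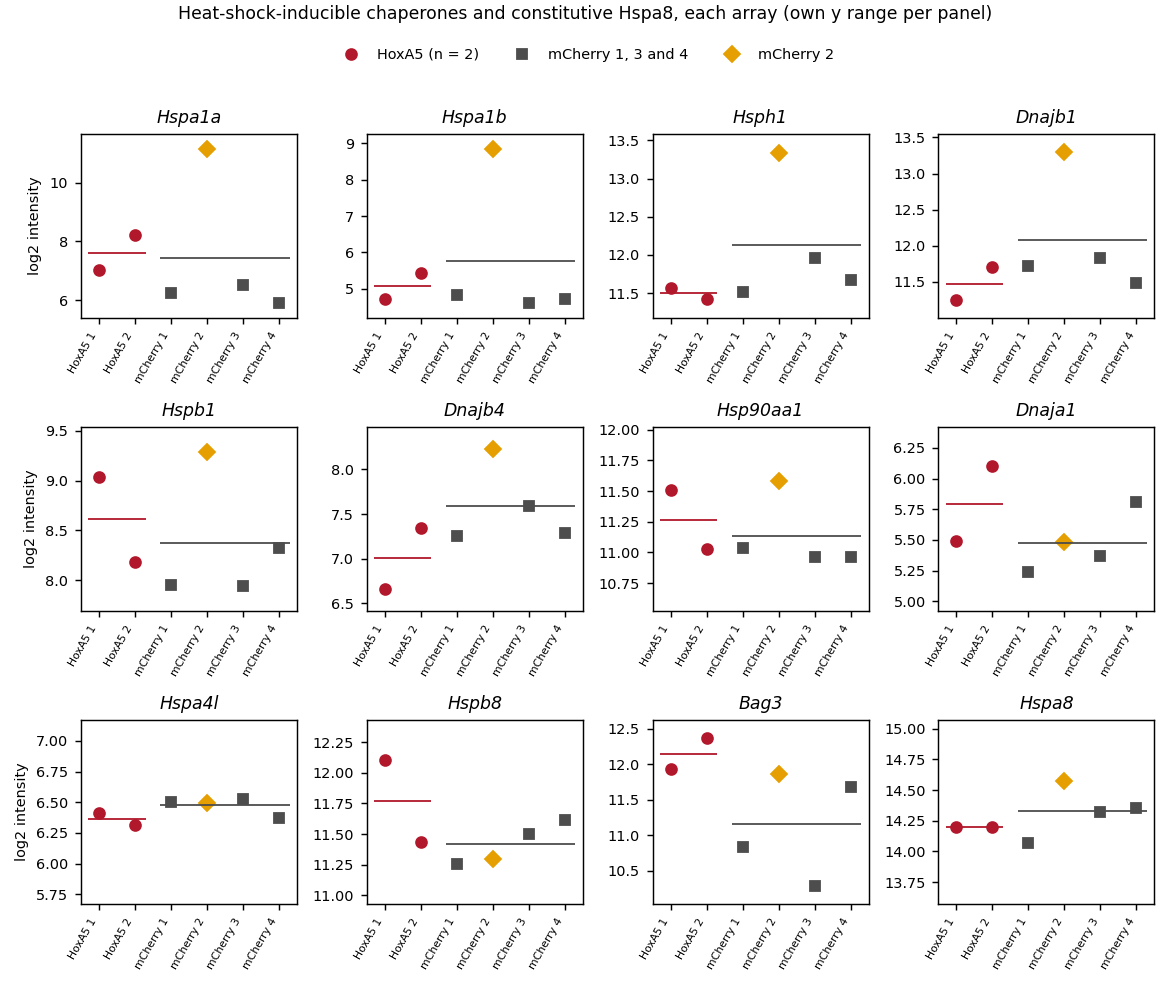
Normalized log2 intensity of the 11 heat-shock-inducible members and of constitutive Hspa8 on each array, with group means as lines (HoxA5 n = 2, mCherry n = 4). Each panel has its own y range. mCherry 2 is the highest array for Hspa1a, Hspa1b, Hsph1, Dnajb1, Hspb1, Dnajb4 and Hsp90aa1, and for Hspa8, but not for Dnaja1, Hspa4l, Hspb8 and Bag3.

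By smaller steps, mCherry 2 was also the highest array for the brightest probe of 3 further members. Hspb1, the small heat shock protein Hsp27, had values of 9.03 and 8.19 in the HoxA5 tumours, against 7.95, 9.29, 7.94 and 8.32 in mCherry 1 to 4. The HoxA5 1 tumour was nearly as high as mCherry 2, and the groups overlapped. Dnajb4, another Hsp70 partner, had values of 6.66 and 7.34 in the HoxA5 tumours, against 7.26, 8.23, 7.59 and 7.29 in mCherry 1 to 4, with mCherry 2 the highest array and HoxA5 1 the lowest. Its second probe that passed the filter, detected on 3 arrays, was 0.41 lower in mCherry 2 than in the mean of mCherry 1, 3 and 4. Hsp90aa1, the inducible cytosolic Hsp90, had values of 11.51 and 11.03 in the HoxA5 tumours, against 11.04, 11.58, 10.96 and 10.96 in mCherry 1 to 4 by its brightest probe. Its second probe did not follow, being 0.45 lower on the log2 scale in mCherry 2 than in the mean of mCherry 1, 3 and 4. None of these 3 group differences (Hspb1 0.24, Dnajb4 -0.59, Hsp90aa1 0.13) passed in limma (adjusted p = 0.778, 0.395 and 0.793).

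For the remaining 4 members of the list mCherry 2 was not the highest array by the brightest probe. Dnaja1, a J-domain partner of Hsp70, had values of 5.49 and 6.10 in the HoxA5 tumours, against 5.24, 5.48, 5.37 and 5.81 in mCherry 1 to 4. The brightest probe of Hspa4l, an Hsp110, lay between 6.37 and 6.53 in the mCherry tumours and at 6.41 and 6.31 in the HoxA5 tumours, while its second probe was 1.76 higher in mCherry 2 than in the mean of mCherry 1, 3 and 4. Hspb8, a small heat shock protein that works with Bag3 in selective autophagy, had values of 12.10 and 11.43 in the HoxA5 tumours, against 11.26, 11.30, 11.50 and 11.62 in mCherry 1 to 4.

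Bag3 itself had values of 11.93 and 12.37 in the HoxA5 tumours, against 10.83, 11.86, 10.28 and 11.68 in mCherry 1 to 4. Both HoxA5 tumours were above all 4 mCherry tumours, with mCherry 2 and mCherry 4 the nearest. Among the controls mCherry 2 was highest, 0.93 above the mean of mCherry 1, 3 and 4. The means were 12.15 ± 0.313 (SD, n = 2) in HoxA5 and 11.16 ± 0.740 (SD, n = 4) in mCherry tumours, and the difference of 0.99 (SE 0.419) did not pass (limma adjusted p = 0.185). It was 1.22 without mCherry 2 (adjusted p = 0.137).

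Over the list of 11, chosen by role, 0 genes were called in either direction in limma, 1 had an unadjusted p under 0.05, and the median difference was 0.13, against 0.072 over all genes. The mean log2 level of the list was 8.88 and 9.05 in the HoxA5 tumours, against 8.58, 10.08, 8.64 and 8.71 in mCherry 1 to 4. mCherry 2 was above all other arrays for 7 of the 11 genes, 4 of them by more than 1 on the log2 scale. Over all genes tested it was above the others for 9.73% and by more than 1 for 0.752%. mCherry 2 was set apart with its values known, so these shares describe 1 tumour and test nothing. The same 4 genes, Hspa1a, Hspa1b, Hsph1 and Dnajb1, were the only ones among the 69 members with such a gap on mCherry 2. Among the other 5 arrays, HoxA5 1 stood more than 1 above the rest for 1 member, Dnajc9, and the remaining 4 arrays for 0. Without mCherry 2 the list's median difference was 0.30, over the 10 genes that could then be tested.

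Other genes of the heat shock response did not stand above all arrays in that tumour by more than 1 on the log2 scale. Of 16 tested genes, chosen by role and including the Hsp90 co-chaperones Stip1, Ahsa1, Fkbp4 and Cdc37, mCherry 2 was above the other arrays for 3, and the median of mCherry 2 minus the mean of mCherry 1, 3 and 4 was 0.27, against -0.050 over all genes. Chordc1, an Hsp90 co-chaperone induced by heat, was 1.38-fold higher there than in the mean of mCherry 1, 3 and 4. Serpinh1, the collagen chaperone of the ER that heat shock factors also induce, had values of 13.08 and 12.42 in the HoxA5 tumours, against 10.11, 11.84, 10.07 and 12.38 in mCherry 1 to 4 (difference 1.65, limma adjusted p = 0.143), and in mCherry 2 it was 0.99 above the mean of mCherry 1, 3 and 4 but below mCherry 4 and both HoxA5 tumours. Immediate early genes, which are switched on within minutes of many stimuli, were high in mCherry 2 as well, above all other arrays for 6 of 7 and by more than 1 for 5. Fosb was at 5.46 and 5.57 in the HoxA5 tumours, against 6.07, 12.45, 6.98 and 5.99 in mCherry 1 to 4. Dusp1, a phosphatase that turns off MAP kinases, was at 9.81 and 10.05 in the HoxA5 tumours, against 11.16, 12.87, 11.27 and 10.89 in mCherry 1 to 4 (adjusted p = 0.0795). Fos was 7.91-fold higher in mCherry 2 than in the mean of mCherry 1, 3 and 4. Atf3, above background on 3 of 4 mCherry arrays, was at 5.58 and 6.49 in the HoxA5 tumours, against 5.27, 10.32, 4.84 and 6.13 in mCherry 1 to 4. Both measured red cell markers, Hba-a1 and Alas2, were also highest there, with a list mean of 10.15, against 10.07 in mCherry 3 and 7.92 to 8.65 in the other 4 arrays. The part of any of these in the chaperone levels was not tested. Chordc1 and Atf3 were picked after their values were seen.

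**Figure D2:**
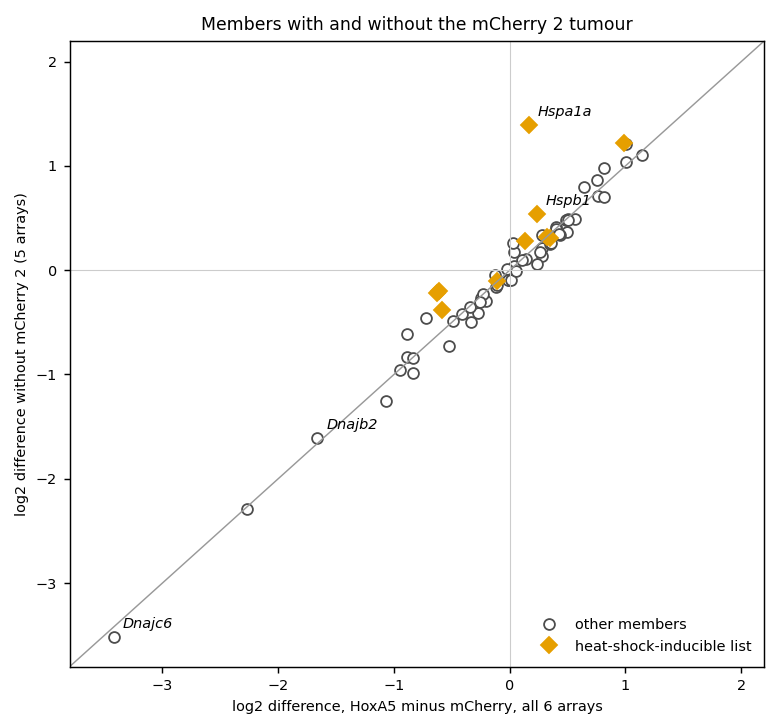
Log2 difference (HoxA5 minus mCherry) of 68 members from all 6 arrays (x axis) and without mCherry 2 (y axis), with the line of equal values. The point farthest from the line is Hspa1a (0.16 and 1.40), while Dnajc6 stays near it (-3.42 and -3.52).

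None of the constitutive members was called, and their differences went both ways. Hspa8, the constitutive Hsp70 of the cytosol, had values of 14.20 and 14.20 in the HoxA5 tumours, against 14.07, 14.57, 14.32 and 14.35 in mCherry 1 to 4, a span of less than 1 on the log2 scale with mCherry 2 highest. Its difference was -0.13 (SE 0.194, limma adjusted p = 0.710), with a positive sign (0.12) under median scaling. Its 3 detected probes disagreed in direction, with differences of -0.13, 0.023 and -0.80.

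Of the 14 tested constitutive members 0 were called in limma and 0 had an unadjusted p under 0.05, with a median difference of -0.11 that was 0.084 under median scaling. The list mean was 9.50 and 9.53 in the HoxA5 tumours, against 9.55, 9.50, 9.55 and 9.52 in mCherry 1 to 4, so that the mCherry 2 tumour did not stand out. mCherry 2 was the highest array for 1 of the 14, Hspa8. The 4 members with the smallest p were Dnajc2, Dnajc9, Hspa4 and Dnajb6. Dnajc2, a J-domain protein of the ribosome, had values of 9.96 and 10.29 in the HoxA5 tumours, against 9.51, 9.35, 9.71 and 9.68 in mCherry 1 to 4, with the groups apart (difference 0.56, adjusted p = 0.211). Hspa4, an Hsp110, had values of 8.14 and 8.22 in the HoxA5 tumours, against 6.78, 7.86, 6.88 and 7.95 in mCherry 1 to 4, also apart, although mCherry 2 and mCherry 4 came close to the HoxA5 arrays (difference 0.82, adjusted p = 0.272). Dnajc9, a J-domain protein that chaperones histones, reached 6.46 in HoxA5 1 and 5.12 in HoxA5 2, against 4.76 to 5.39 in the mCherry tumours, and was above background on 1 mCherry array. Dnajb6, which keeps polyglutamine proteins from aggregating, had values of 8.57 and 10.01 in the HoxA5 tumours, against 10.90, 9.68, 10.20 and 9.73 in mCherry 1 to 4, spread widely within both groups.

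Bag1, Bag2, Bag4, Bag5 and Bag6 differed by -0.49 (Bag5) to 0.28 (Bag6). None of the 5 passed in limma.

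**Figure D3:**
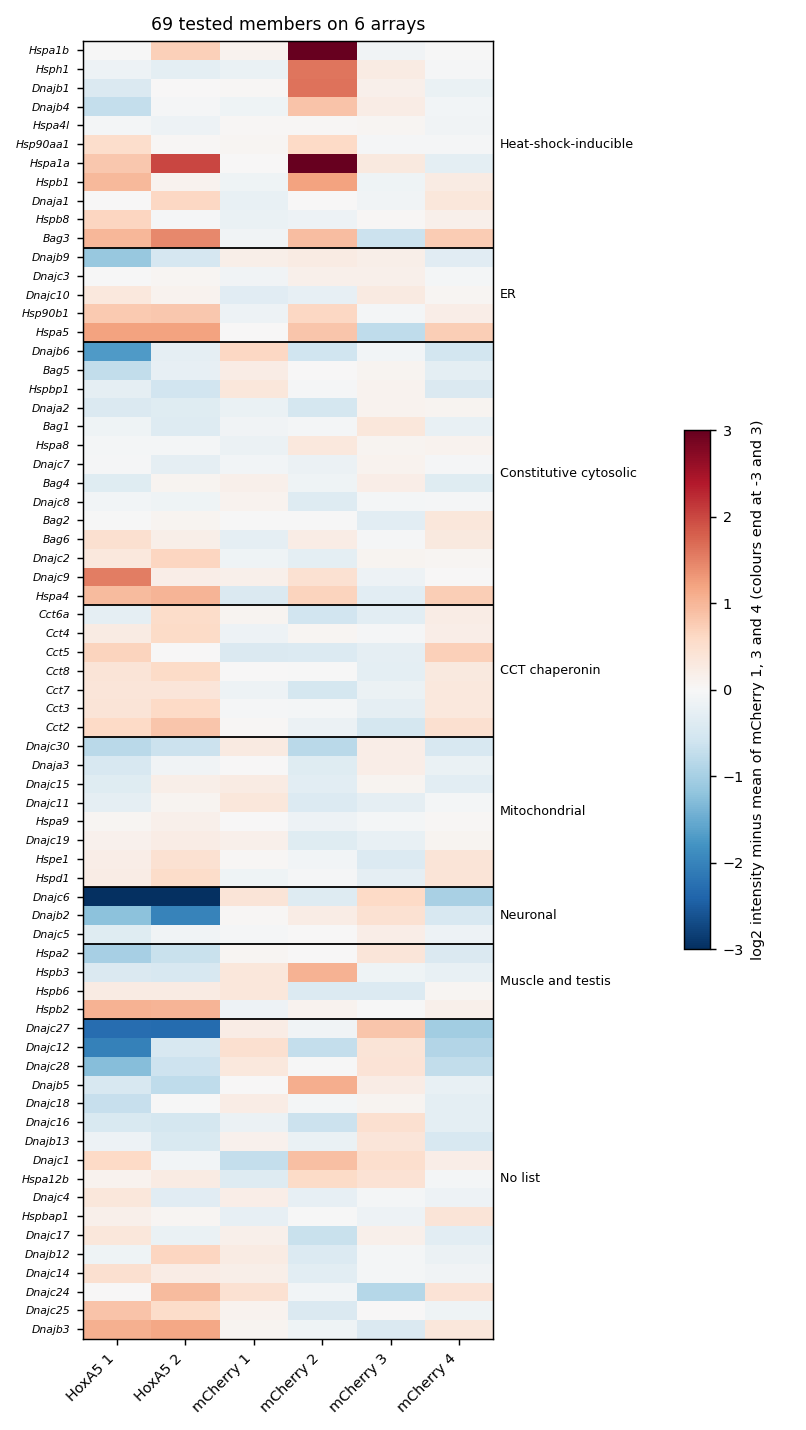
Log2 intensity of the 69 tested members on each array, minus the mean of mCherry 1, 3 and 4, by role. Colours end at -3 and 3. Hspa1a and Hspa1b in mCherry 2 and Dnajc6 in both HoxA5 tumours lie beyond the ends of the scale.

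Chaperones of the ER did not share a direction. Hspa5 (BiP), the Hsp70 of the ER, had values of 7.29 and 7.29 in the HoxA5 tumours, against 6.08, 6.91, 5.32 and 6.82 in mCherry 1 to 4, higher in both HoxA5 tumours than in any mCherry tumour. The mCherry tumours were spread over more than 1 on the log2 scale. The means were 7.29 ± 0.00180 (SD, n = 2) in HoxA5 and 6.28 ± 0.743 (SD, n = 4) in mCherry tumours, and the difference of 1.00 (SE 0.474) did not pass (limma adjusted p = 0.223). Hsp90b1 (Grp94), the Hsp90 of the ER, had values of 12.95 and 12.96 in the HoxA5 tumours, against 12.02, 12.78, 12.10 and 12.37 in mCherry 1 to 4, with a difference of 0.64 (SE 0.246, adjusted p = 0.150). Here too the groups were apart and mCherry 2 came closest to the HoxA5 tumours. Both of these genes carry the ER stress element in the sequences above. It was also found for Dnajc3, which differed by -0.025, and the part of the ER stress element in these levels was not tested.

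Dnajb9 (ERdj4), a J-domain partner of Hspa5, had values of 9.21 and 9.84 in the HoxA5 tumours, against 10.53, 10.59, 10.52 and 10.01 in mCherry 1 to 4, lower in both HoxA5 tumours than in every mCherry tumour. Its difference was -0.89 (SE 0.287), which did not pass (adjusted p = 0.0986) except without mCherry 4 and with array weights (adjusted p = 0.0287 and 0.0422), and its other detected probe had the same sign (-0.48). Dnajc10 (ERdj5), which reduces disulfide bonds in the ER, differed by 0.28 and Dnajc3, an inhibitor of translation-regulating kinases, by -0.025. Of the 5 tested ER members 0 were called in limma, 2 had an unadjusted p under 0.05, and 3 had a difference above 0. Of 14 other genes of the unfolded protein response 0 were called and 1 had an unadjusted p under 0.05. A difference above 0 was found for 11 of the 14, against 54.8% of all genes, and their median was 0.25, against 0.072. The median of mCherry 2 minus the mean of mCherry 1, 3 and 4 was 0.47 for them, against -0.050 over all genes. Herpud1, an ER-associated degradation factor, was at 11.33 and 11.29 in the HoxA5 tumours, against 12.08, 12.39, 12.25 and 11.55 in mCherry 1 to 4. Creld2 differed by 0.79, Ddit3 by -0.77 and Pdia6 by 0.62, and did not pass.

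All 7 tested subunits of the CCT ring had a higher mean in HoxA5 tumours, and 0 were called. Their differences ran from 0.28 (Cct6a) to 0.76 (Cct2) with a median of 0.48, against 0.072 over all genes, of which 54.8% had a difference above 0. Cct3 had values of 12.20 and 12.42 in the HoxA5 tumours, against 11.79, 11.76, 11.54 and 12.13 in mCherry 1 to 4, and Cct8 had values of 11.87 and 12.06 in the HoxA5 tumours, against 11.49, 11.47, 11.20 and 11.77 in mCherry 1 to 4. In both, the HoxA5 tumours were above every mCherry tumour by these probes, and mCherry 4 was the next array. Their differences were 0.50 (SE 0.227) and 0.48 (SE 0.227), with limma adjusted p of 0.208 and 0.221. A second Cct3 probe, detected on 6 arrays, overlapped between the groups. It was at 10.13 and 10.90 in the HoxA5 tumours, against 10.58, 9.94, 9.91 and 10.62 in mCherry 1 to 4. The third Cct3 probe, detected on 3 arrays, gave a difference of -0.053.

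Cct2 had values of 6.50 and 6.74 in the HoxA5 tumours, against 5.95, 5.72, 5.39 and 6.38 in mCherry 1 to 4 (adjusted p = 0.221), and Cct4 had values of 12.002 and 12.34 in the HoxA5 tumours, against 11.60, 11.81, 11.71 and 11.97 in mCherry 1 to 4 (adjusted p = 0.281). The HoxA5 arrays lay above all mCherry arrays for 5 of the 7 subunits, against 18.3% of all genes. The groups overlapped for Cct5 and Cct6a. Cct7 was at 7.01 and 7.02 in the HoxA5 tumours and was lowest in mCherry 2, at 6.13. The list mean was 9.97 and 10.13 in the HoxA5 tumours, against 9.54, 9.39, 9.36 and 9.99 in mCherry 1 to 4, so mCherry 4 reached the level of HoxA5 1. Tcp1, the subunit outside the rule, was at 11.75 and 12.41 in the HoxA5 tumours, against 11.75, 11.45, 11.56 and 11.76 in mCherry 1 to 4. Markers of dividing cells ran in a similar order over the arrays, with a mean of 9.79 and 10.01 in the HoxA5 tumours, against 7.41, 7.51, 6.01 and 8.84 in mCherry 1 to 4. All 7 tested of 9 dividing-cell markers had a higher mean in HoxA5 tumours, and 4 were called higher. The part of dividing cells in the CCT levels was not tested. Prefoldin, which hands unfolded actin and tubulin to CCT, did not follow, with 2 of 5 tested genes above 0 and a difference of -0.98 for Pfdn2 and 0.63 for Vbp1, neither of which passed (limma adjusted p = 0.0641 and 0.199). None of the 5 was called, and 3 had an unadjusted p under 0.05.

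None of the mitochondrial chaperones was called, with differences from -0.52 (Dnajc30) to 0.40 (Hspd1). Hspa9 (mortalin), the Hsp70 of the matrix, had values of 13.01 and 13.11 in the HoxA5 tumours, against 12.98, 12.80, 12.91 and 12.98 in mCherry 1 to 4, and Hspd1, the Hsp60 chamber, had values of 12.01 and 12.33 in the HoxA5 tumours, against 11.65, 11.74, 11.50 and 12.17 in mCherry 1 to 4. Hspe1, its Hsp10 lid, had values of 10.43 and 10.70 in the HoxA5 tumours, against 10.27, 10.16, 9.82 and 10.63 in mCherry 1 to 4. The Hspd1 and Hspe1 genes share the promoter stretch with the heat shock element printed above, and mCherry 2 stood out for neither by these probes. A second Hspd1 probe, detected on 6 arrays, was lowest in mCherry 2, 1.08 below the mean of mCherry 1, 3 and 4. Its group difference was 0.12. By the brightest probes, Hspd1 and Hspe1 differed by 0.40 and 0.35 (limma adjusted p = 0.340 and 0.466), and Hspa9 by 0.14 (adjusted p = 0.662). Dnajc30 differed by -0.52 and Dnajc19, of the import motor, by 0.26. Of the 8 tested members 0 were called in limma and 0 had an unadjusted p under 0.05, with a median of 0.076 that was 0.26 under median scaling. Of 8 other mitochondrial chaperones and proteases, among them Trap1, Lonp1 and Clpp, 0 were called and 0 had an unadjusted p under 0.05, with differences between -0.21 and 0.22.

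The 4 called members were 3 that fell and 1 that rose in HoxA5 tumours. That is 4.35% of the 69 tested members called lower, against 4.64% of all genes, and 1.45% called higher, against 1.21% of all genes, so both shares lie near the background. An unadjusted p under 0.05 was found for 11 members (15.9%), against 24.6% of all genes. Without regard to a threshold, the HoxA5 arrays lay above all mCherry arrays for 15 members (21.7%), against 18.3% of all genes, and below them for 7 (10.1%), against 17.2%. Without mCherry 2, 1 of 68 members was called lower, Dnajc6, and 0 higher, against 2.01% and 0.176% of all genes.

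**Figure D4:**
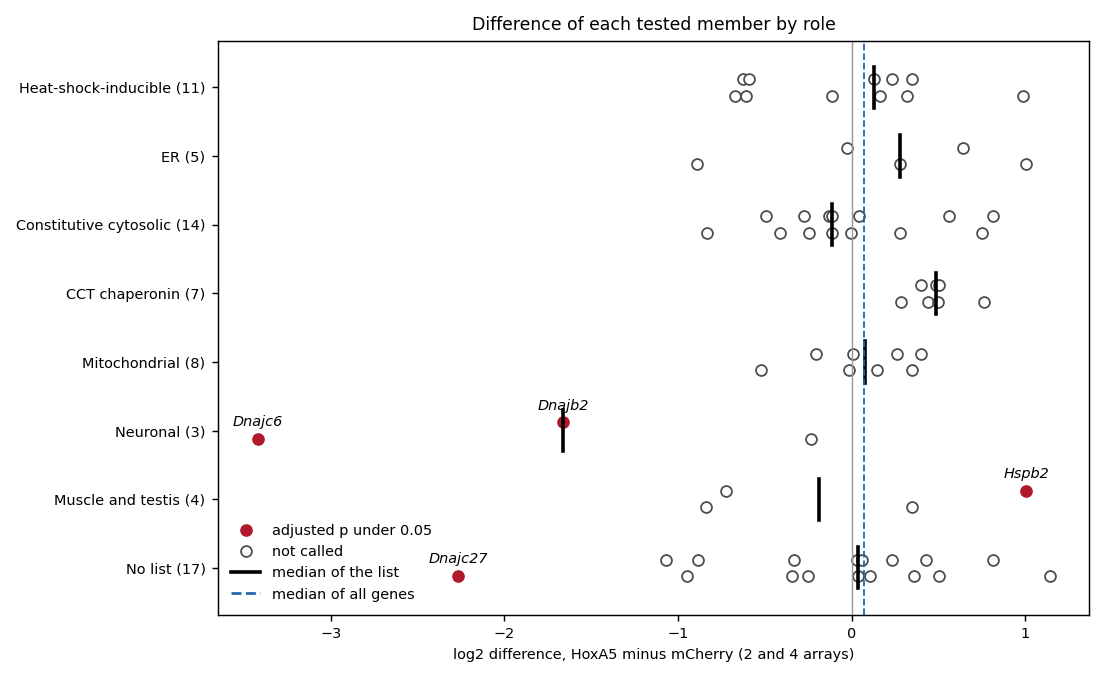
Log2 difference (HoxA5 minus mCherry, 2 and 4 arrays) of each tested member by role. Filled points passed an adjusted p under 0.05, bars are list medians and the dashed line is the median of all genes (0.072). Dnajc6, Dnajc27 and Dnajb2 lie below -1.6 and the 7 CCT subunits all lie above 0.

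Dnajc6 (auxilin), the J-domain protein with which Hspa8 strips clathrin from synaptic vesicles, fell most. It had values of 8.88 and 8.89 in the HoxA5 tumours, against 12.79, 12.02, 12.997 and 11.43 in mCherry 1 to 4. The HoxA5 mean was 8.89 ± 0.00681 (SD, n = 2) and the mCherry mean 12.31 ± 0.721 (SD, n = 4), which differed by -3.42 (SE 0.404, 10.7-fold lower, limma adjusted p = 0.00571), and mCherry 4 was the lowest control. A second probe gave -3.52. It was called in 18 of 19 alternatives, the exception being the fit without HoxA5 2 (adjusted p = 0.0994).

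Dnajc27, a small GTPase of the Rab kind with a J domain, fell 4.82-fold (difference -2.27, SE 0.468, limma adjusted p = 0.0261). It had values of 7.19 and 7.17 in the HoxA5 tumours, against 9.70, 9.37, 10.30 and 8.42 in mCherry 1 to 4, and its other detected probe gave -1.09. It no longer passed without HoxA5 1, HoxA5 2, mCherry 1 or mCherry 2 (adjusted p = 0.163, 0.200, 0.0853 and 0.0670), with sex as a block (adjusted p = 0.0571) or with its probes averaged (difference -1.68, adjusted p = 0.0575), and was called in 13 of 19 alternatives. Dnajb2 (HSJ1), a neuronal J-domain protein that sends clients to the proteasome, fell 3.16-fold (difference -1.66, SE 0.338, limma adjusted p = 0.0251). It had values of 9.24 and 8.47 in the HoxA5 tumours, against 10.49, 10.68, 10.93 and 9.97 in mCherry 1 to 4, with no overlap, and it did not pass without the same 4 arrays (adjusted p = 0.0679, 0.229, 0.0749 and 0.0708).

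Dnajc5 (CSP alpha), the J-domain protein of synaptic vesicles, did not pass, with values of 11.94 and 12.19 in the HoxA5 tumours, against 12.25, 12.31, 12.48 and 12.14 in mCherry 1 to 4 (difference -0.23, adjusted p = 0.511). Hspa12a, the remaining member of the neuronal list, was below background on all 6 arrays. Neuron markers were lower in the HoxA5 tumours, with 8 of 9 tested markers of 11 called lower and a mean of 9.03 and 7.90, against 11.64, 11.52, 12.12 and 10.45 in mCherry 1 to 4. Snap25 and Nefl were not tested among them. The part of neurons in the fall of Dnajc6, Dnajc27 and Dnajb2 was not tested.

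Hspb2, a small heat shock protein known from muscle, was the member that rose. It had values of 5.68 and 5.67 in the HoxA5 tumours, against 4.51, 4.75, 4.64 and 4.79 in mCherry 1 to 4, above background in both HoxA5 tumours and in 0 of 4 mCherry tumours. Its measured means were 5.68 ± 0.00727 (SD, n = 2) in HoxA5 and 4.67 ± 0.127 (SD, n = 4) in mCherry tumours. Set against the lowest signal above background on each mCherry array, it was at least 1.48-fold higher. The limma adjusted p of 0.0440 belongs to the fitted difference of 1.01, not to this bound. Hspb2 met the detection filter only through the 2 HoxA5 arrays, where it was high, so its call is not independent of the filter. It did not pass without mCherry 1, 2 or 3 (adjusted p = 0.123, 0.0995 and 0.0873), with the replicate number as a block (0.122), with sex as a block (0.0846), without an intensity trend (0.0552) or without background correction (0.0550), and without either HoxA5 array it did not meet the detection filter. Its difference depended on the background correction, being 1.01 on the log2 scale as fitted, 0.29 without it and 0.31 with the authors' values, and the last 2 are smaller folds than the bound given. The mean of the fibroblast markers, Pdgfra among them, was 10.89 and 9.78 in the HoxA5 tumours, against 7.45, 8.13, 7.53 and 8.78 in mCherry 1 to 4. The part of fibroblasts in the level of Hspb2 was not tested. Cryab (alpha B-crystallin), the small heat shock protein whose gene overlaps Hspb2 in the GRCm38.p6 gene table, went the other way without passing, at 9.91 and 9.32 in the HoxA5 tumours, against 10.68, 10.67, 10.17 and 10.11 in mCherry 1 to 4 (adjusted p = 0.139).

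**Figure D5:**
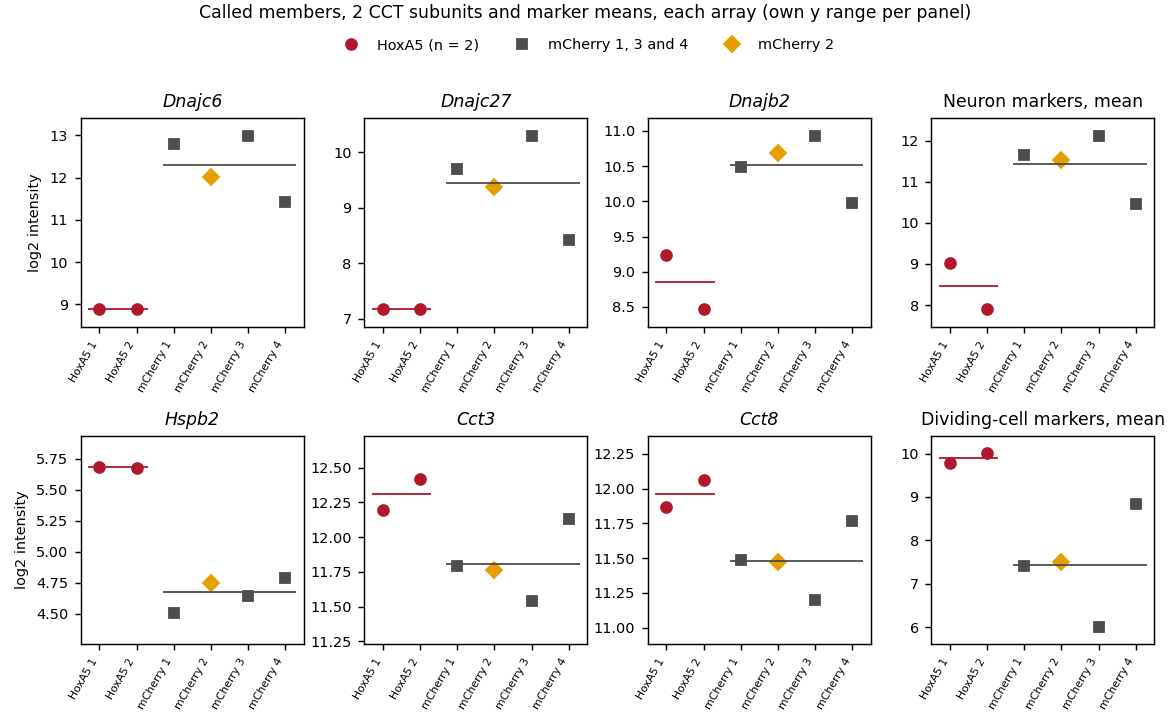
Normalized log2 intensity on each array of the 4 called members, of Cct3 and Cct8, and of the means of neuron and dividing-cell markers, with group means as lines (HoxA5 n = 2, mCherry n = 4). Each panel has its own y range. In all 6 gene panels the HoxA5 tumours lie outside the range of the mCherry tumours, and mCherry 4 is the nearest control.

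Hspb6 and Hspb3, small heat shock proteins of muscle, did not pass. Hspb6 (Hsp20) had values of 11.06 and 11.05 in the HoxA5 tumours, against 11.15, 10.40, 10.40 and 10.86 in mCherry 1 to 4, and Hspb3 had values of 6.30 and 6.27 in the HoxA5 tumours, against 7.09, 7.79, 6.62 and 6.52 in mCherry 1 to 4, with mCherry 2 the highest array (limma adjusted p = 0.460 and 0.317). Hspa2, an Hsp70 best known from testis and also expressed in brain, had values of 10.42 and 10.75 in the HoxA5 tumours, against 11.49, 11.43, 11.79 and 10.99 in mCherry 1 to 4, lower in both HoxA5 tumours than in every mCherry tumour. Its difference of -0.84 (SE 0.266) did not pass (adjusted p = 0.0930) except without mCherry 4 and with array weights (adjusted p = 0.0196 and 0.0361), and its other detected probe gave -0.92. Hspb7, Hspb9, Hspb11 and Hspa1l did not reach the detection filter.

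Among members in none of the lists, Dnajb5 was highest in mCherry 2 by its brightest probe, with values of 5.85 and 5.56 in the HoxA5 tumours, against 6.33, 7.41, 6.54 and 6.08 in mCherry 1 to 4. By this probe mCherry 2 was 2.13-fold above the mean of mCherry 1, 3 and 4. Both HoxA5 tumours were lower than every mCherry tumour, without passing (limma adjusted p = 0.218). Its other probes, detected on 3 and 2 arrays, were highest in mCherry 1 (5.93 and 5.42), not in mCherry 2 (5.55 and 5.34). By both of them mCherry 4 (4.73 and 4.75) lay below the HoxA5 tumours. Dnajc25 and Dnajc17 were the members outside the CCT ring that lay farthest below the other arrays in mCherry 2, at 5.08 and 6.43. Dnajb3, named after its values were seen, had values of 6.19 and 6.28 in the HoxA5 tumours, against 5.22, 4.99, 4.69 and 5.48 in mCherry 1 to 4, with the groups apart and an adjusted p of 0.0591.

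Of the 14 members that were not tested, Dnajc5b, Hspa13 and Hspa1l were each above background on 1 array at most by any probe, and the other 11, among them Cct6b, Hspa14, Dnajb14 and Hspa12a, on 0. Of the 28 members with 2 or more detected probes, the group difference had the same sign on all probes for 23.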

How the data were processed

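Labelled RNA from 2 HoxA5 and 4 mCherry gliomas was measured on Illumina mouse bead arrays. The deposited table holds probe intensities that were not normalized, per the file headers, and a detection p-value per probe and array, which the authors deposited beside them. A second deposited table holds log2 values, which the submitters' processing notes tie to limma with no step given. They rank probes as the intensities do (Spearman correlation 1 on each array) and stay within 0.135 of uncorrected quantile-normalized log2 intensities, and they were used as an alternative only.

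Intensities were corrected and quantile normalized with neqc of limma 3.58.1 in R 4.3.3 (background from detection p-values, offset 16, log2). Probes were named from the platform annotation (34885 of 45281 with 1 symbol, 18 with several and 10378 with none). A gene was represented by its brightest probe among those with a detection p under 0.05 on at least 2 of 6 arrays. Groups were compared with lmFit and eBayes with an intensity trend (4 residual degrees of freedom), and p-values were adjusted over 12242 genes by the Benjamini-Hochberg method, with calls at an adjusted p under 0.05. The script was tested on simulated data. Values are log2 intensities, differences are HoxA5 minus mCherry, and levels of different probes were not compared. The precision is limited by the number of arrays.

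The members, role lists and marker lists were chosen, and mCherry 2 was set apart, with earlier results of these data known. Named were 15 fixed members, every called member, up to 4 members per role list by smallest p, up to 10 members by distance of mCherry 2 from the other 5 arrays, and up to 4 genes of each list outside the rule. Promoters are RefSeq sequences of GRCm38.p6. Alternatives covered background correction, normalization, detection filter, probe choice, variance model, array weights, replicate number or sex as a block, threshold and each array left out.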

Additional observations from a re-analysis of the deposited data

Results flagged for a closer look

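Among the 4 mCherry tumours, 46 values were examined for an array far from the others (gap to the nearest over the range, above Dixon's critical value). Chance flags about 1 in 20 groups of values chosen without regard to them, but 10 of the 39 members among these were named for the distance of mCherry 2 from the other arrays, so that rate does not apply. It was met by 5 values, 4 of them through mCherry 2. The mean of the heat-shock-inducible list stood apart in mCherry 2 (10.08, gap over range 0.911), as did Hspa1a (11.15, ratio 0.887), Hspa1b (8.83, ratio 0.949) and Hsp90aa1 (11.58, ratio 0.88). Hspa1a, Hspa1b and Hsp90aa1 are all part of that list, so these values are not separate. The second Hsp90aa1 probe that passed the filter was 0.45 lower in mCherry 2 than in the mean of mCherry 1, 3 and 4. Dnajb9 was low in mCherry 4 (10.01, ratio 0.866).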

How the results depend on the processing

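For 39 named members and 19 alternatives, 735 values were obtained, of which 696 kept their direction and their side of the threshold, 19 lost a call and 6 gained one. The sign turned in 14 values of 5 members, of which none was called. For Hspa1a it was -0.18 without background correction, -0.16 with the authors' values, -0.23 with array weights, -1.07 with the replicate block, and -0.43, -0.24, -0.15 and -0.35 without HoxA5 2, mCherry 1, mCherry 3 and mCherry 4, against 1.40 without mCherry 2. Hsp90aa1 was at -0.043 and Hspb1 at -0.0099 with the replicate block, and without HoxA5 1 Hsp90aa1 was at -0.11, Hspb1 at -0.19 and Dnajc17 at -0.039. Without HoxA5 2 they were at 0.37, 0.66 and 0.51. Hspa8 was at 0.12 under median scaling, which moved the median of all genes to 0.20.

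The count of members called higher, 1, was 0 without background correction, with the authors' values, with detection on all 6 arrays, without an intensity trend, and with the replicate number or sex as a block. It was 2 with median scaling, array weights or an adjusted p under 0.10, and 0 to 2 with 1 array left out. The count called lower, 3, was 5 with array weights or an adjusted p under 0.10, 2 with sex as a block or with probes averaged per gene (Dnajc27 lost), and 0 to 6 with 1 array left out. The sex was read from Xist and Eif2s3y. Over all genes, 148 called higher became 265 with median scaling, 95 with no detection filter, 642 with array weights, 236 with the replicate block, 31 with sex as a block, 506 with an adjusted p under 0.10 and 0 to 1039 with 1 array left out. The 568 called lower became 372 without background correction, 362 with the authors' values, 1104 with array weights, 307 with sex as a block, 1003 with an adjusted p under 0.10 and 2 to 1372 with 1 array left out. Calls were 20.7% higher ones, against 37.7% with median scaling, 36.8% with array weights, 33.5% with an adjusted p under 0.10, and 9.17% with sex as a block. Without mCherry 4, 1039 genes were called higher and 1372 lower.

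The count of 0 became 1 for heat shock response genes called higher (replicate block), for unfolded protein response genes called lower (array weights), for prefoldin called lower (array weights, adjusted p under 0.10), and for immediate early genes called higher (no detection filter) and lower (array weights, replicate block, adjusted p under 0.10). With 1 array left out these counts ran from 0 to 2, and from 0 to 1 for immediate early genes called lower. The median of the ER list was 0.53 with probes averaged per gene or taken singly, and 0.50 with the replicate block. The constitutive median was 0.084 with median scaling and -0.036 with the replicate block, and -0.12 to -0.063 with 1 array left out. The mitochondrial median was 0.26 with median scaling, and the neuronal one -0.95 with no detection filter. The median of the muscle and testis list was -0.027 without background correction and -0.027 with the authors' values, 0.17 with no detection filter, -0.72 with detection on all 6 arrays, and -0.71 to -0.098 with 1 array left out. The cause of these shifts was not tested.

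The replicate numbers are shared by name, and the sample titles give no pairing. The deviations of HoxA5 and mCherry arrays of the same number correlated at -0.36 and -0.24. With 2 HoxA5 arrays these values cannot decide whether the numbers stand for a pairing. With the replicate number as a block 3 of the 4 calls passed, Dnajc6, Dnajc27 and Dnajb2 (log2 differences of -3.52, -2.35 and -1.73). A slide or scan block was not run, because neither headers nor labels give one. With 2 HoxA5 arrays, leaving one out leaves a lone sample that is assumed to vary like the mCherry arrays.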
